A study of Mus musculus with 6 samples.

Results

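The TALE homeobox relatives of Mkx were examined in bulk RNA-seq of mouse tail tendon, to see whether they changed when Mkx was lost. The members were 9 genes taken by symbol, Irx1, Irx2, Irx3, Irx5, Meis1, Meis2, Pbx3, Tgif1 and Pknox2, of 44788 symbols in the count table; the rule names symbols and uses no measured value, though earlier results of these data were known when the list was drawn up. The table held 20 TALE genes in all, and those that were not members, such as Mkx, Meis3, Pbx2, Pknox1 and Tgif2, served as comparison. Of the members, 6 passed the filter on low counts and were tested, and Irx1, Irx3 and Irx5 did not.

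The study compared tail tendons of 3 WT and 3 Mkx-/- mice, all of the C57BL/6 strain, by sequencing total RNA on the Ion Proton system. Every sample is labelled as 3 weeks old. The text of the publication gives a slightly later age. The genotype label names no tissue-restricted allele, so cell types other than tendon cells may also have lacked Mkx. The sources used here do not say which part of the gene was removed or whether each library was 1 animal, so the p-values measure the spread between libraries, which may be partly technical. In bulk tissue, fewer cells of a type and less RNA per cell cannot be told apart.

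TALE proteins are transcription factors whose homeodomain carries a loop extension of extra residues between its first and second helices. Meis and Pknox proteins bind DNA together with Pbx proteins, and such complexes widen or sharpen the binding of other homeodomain factors. Tgif proteins repress transcription, among others in the TGF-β pathway, which is central to tendon formation. Irx genes lie in clusters and pattern the limb, heart and nervous system, and Mkx itself, a regulator of tendon collagen genes, is the tendon member of the class closest to them.

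The third helix of the homeodomain reads the DNA, and its coding sequence is shown for the 9 members because it is the stretch that all of them share. Capitals mark the 18 bases of the core motif, 6 codons, and lower case the codons around it, all 5′ to 3′ on the coding strand, from the GENCODE vM1 transcripts of the NCBIM37 (mm9) assembly.
Irx1: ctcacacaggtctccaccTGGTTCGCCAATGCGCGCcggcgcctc
Irx2: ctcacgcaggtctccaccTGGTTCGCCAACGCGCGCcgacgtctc
Irx3: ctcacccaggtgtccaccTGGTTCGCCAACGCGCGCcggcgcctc
Irx5: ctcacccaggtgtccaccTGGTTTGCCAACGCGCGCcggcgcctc
Meis1: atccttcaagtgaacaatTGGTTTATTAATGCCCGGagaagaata
Meis2: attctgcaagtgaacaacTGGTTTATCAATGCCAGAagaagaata
Pknox2: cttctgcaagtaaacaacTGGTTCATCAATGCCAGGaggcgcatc
Tgif1: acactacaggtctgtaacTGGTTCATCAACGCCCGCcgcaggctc
Pbx3: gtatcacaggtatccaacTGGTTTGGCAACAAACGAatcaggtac

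The third codon of the core was GCC in all 4 Irx members, ATT or ATC in Meis1, Meis2, Pknox2 and Tgif1, and GGC in Pbx3. Identity was taken over a fixed stretch of 60 residues up to the end of the homeodomain, translated from the same transcripts. This is the length without the loop extension, so the first residues of the domain were left out. Over it Meis1 and Meis2 were 100% identical, as were Irx1 and Irx3, and Irx2 and Irx5. Pknox2 shared 75.0% with each of the Meis members. The Irx members were closest to Mkx, at 56.7 to 58.3% identity, followed by Tgif1 at 40.0%, Pbx3 and Pknox2 at 36.7%, and Meis1 and Meis2 at 33.3%. The 2 members that passed the test of genotype, described next, were Meis1 and Pknox2. Pbx3, with the same identity to Mkx as Pknox2, and Meis2, with the same as Meis1, did not pass, and the Irx members were low or did not pass.

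The targeted gene was read first. WT tendons had 1825, 1381 and 1685 Mkx counts, and Mkx-/- tendons had 620, 589 and 491. The groups did not overlap and the direction was that of the labels, yet reads on Mkx remained in every Mkx-/- library. Mkx fell by 1.60 on the log2 scale (SE 0.16, n = 3 per group, adjusted p = 0.00183, edgeR quasi-likelihood test with Benjamini-Hochberg adjustment over 14550 genes). Counts per gene do not show whether the remaining reads come from exons that the allele keeps.

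Of the 6 members tested, Pknox2 and Meis1 were downregulated in Mkx-/- tendons and none was upregulated. Pknox2 fell by 49.5% and Meis1 fell by 45.2%, whereas Irx2, Pbx3 and Tgif1 differed by less than the spread of their libraries. By comparison, 2.26% of all tested genes passed the same test in the lower direction and 3.18% in the higher. None of the 6 also exceeded a log2 fold change of 1 in either direction, against 1.33% of all tested genes lower and 1.89% higher. DESeq2, which tested 8 members, also passed 2 lower and 0 higher, against 558 lower and 761 higher of 16267 genes. At an unadjusted p under 0.05, 3 of 6 members were lower and 0 higher, against 10.1% and 12.5% of all tested genes. The median log2 fold change of the 6 was -0.31, and that of all tested genes -0.004.

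Pknox2, a partner of Pbx proteins related to Meis, had normalized CPM (counts scaled to the same effective library size) of 30.3, 29.1 and 20.6 in WT and 13.6, 14.1 and 12.7 in Mkx-/- tendons. Every WT library lay above every Mkx-/- library, and the Mkx-/- libraries lay closer together than the WT ones. Its log2 fold change was -0.99 (SE 0.17, 95% interval -1.37 to -0.60, adjusted p = 0.0167, edgeR quasi-likelihood test with Benjamini-Hochberg adjustment). The call did not hold when WT replicate 2 (adjusted p = 0.0668, edgeR), Mkx-/- replicate 2 (0.0540) or Mkx-/- replicate 3 (0.0623) was left out, and the log2 fold change then lay at -0.93, -1.02 and -0.95.

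Meis1, a homeobox gene known from blood stem cells and limb patterning, had normalized CPM of 8.19, 10.9 and 11.0 in WT and 5.50, 5.55 and 5.39 in Mkx-/- tendons. The groups did not overlap, and the Mkx-/- libraries were almost level. Its log2 fold change was -0.87 (SE 0.18, 95% interval -1.27 to -0.46, adjusted p = 0.0306, edgeR quasi-likelihood test with Benjamini-Hochberg adjustment). The call was lost in 5 of the 6 fits with 1 library left out, that is without WT replicate 2 (adjusted p = 0.0992, edgeR), WT replicate 3 (0.106), Mkx-/- replicate 1 (0.0687), replicate 2 (0.0909) or replicate 3 (0.100), with log2 fold changes of -0.89 to -0.81. It was also lost with scaling by library size alone (-0.60, adjusted p = 0.0674, edgeR), which moves the median of all genes to 0.25.

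Meis2, identical to Meis1 over the homeodomain residues compared, had normalized CPM of 9.14, 5.10 and 5.77 in WT and 4.95, 4.43 and 3.33 in Mkx-/- tendons. The groups did not overlap, but WT replicate 1 stood high and the lowest WT library nearly met the highest Mkx-/- library. Its log2 fold change of -0.66 (95% interval -1.29 to -0.04) had an adjusted p of 0.196 (edgeR quasi-likelihood test) and did not pass, and without WT replicate 1 it was -0.37. Thus 3 of the 6 tested members had all Mkx-/- libraries below all WT libraries, compared with 13.6% of all tested genes, and 0 had them all above, compared with 14.6%.

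**Figure D1:**
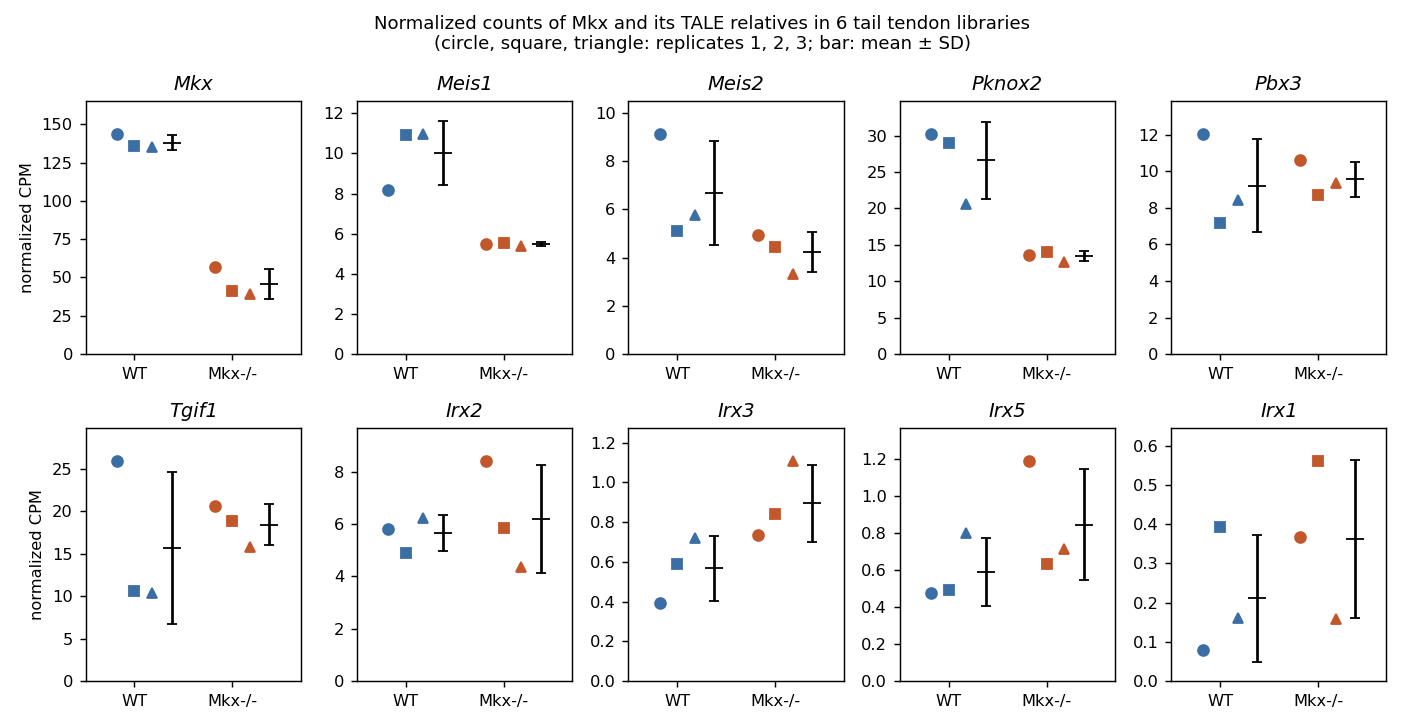
Normalized CPM (y axis, linear from 0) of Mkx and the 9 members in each library by genotype, with replicate 1, 2 and 3 as circle, square and triangle and the mean ± SD as a bar. Pknox2 and Meis1 are separated between the genotypes, and the WT circle stands apart for Tgif1 at 26.0.

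Tgif1, a repressor in TGF-β signalling, had normalized CPM of 26.0, 10.6 and 10.4 in WT and 20.7, 18.8 and 15.9 in Mkx-/- tendons. WT replicate 1 was the highest of all 6 libraries, and the other WT libraries were the lowest. Over all libraries the log2 fold change was 0.23 (95% interval -0.55 to 1.01, adjusted p = 0.741, edgeR quasi-likelihood test). Without WT replicate 1 it was 0.81 (SE 0.17, adjusted p = 0.0256), past the threshold, and without WT replicate 3 it was -0.01.

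The same library was also the highest in WT for Meis2, Pbx3 and Pknox2. It stood apart for genes outside the family as well, of which Txnip and Pdk4, both responsive to glucose supply and fasting, were picked after their values were seen. Txnip had normalized CPM of 3129 in WT replicate 1 against 643 and 450 in the other WT libraries, and 846, 1351 and 519 in Mkx-/- tendons. Pdk4 had 65.8 against 13.2 and 9.45, and 28.8, 39.5 and 7.93 in Mkx-/- tendons. What set this library apart was not tested.

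Pbx3, a DNA-binding partner of Meis and Hox proteins, had normalized CPM of 12.1, 7.16 and 8.41 in WT and 10.6, 8.71 and 9.35 in Mkx-/- tendons. The Mkx-/- libraries all lay within the WT range. Its log2 fold change of 0.05 (95% interval -0.44 to 0.54, adjusted p = 0.927, edgeR quasi-likelihood test) did not pass.

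Irx2 was the only Irx gene with enough counts to be tested. Its normalized CPM was 5.83, 4.91 and 6.25 in WT and 8.43, 5.83 and 4.36 in Mkx-/- tendons, where both the highest and the lowest library were found. The log2 fold change was 0.12 (95% interval -0.47 to 0.72, adjusted p = 0.828, edgeR quasi-likelihood test) and turned to -0.17 without Mkx-/- replicate 1.

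Irx3 and Irx5, neighbours in one Irx cluster, were near the limit of detection. Irx3 had 5, 6 and 9 counts in WT and 8, 12 and 14 in Mkx-/- tendons, and Irx5 had 6, 5 and 10 against 13, 9 and 9. Irx1, of the other cluster with Irx2, had 1, 4 and 2 against 4, 8 and 2. In CPM, Irx3 alone among these had all Mkx-/- libraries above all WT libraries. Its closest values were 0.721 in WT and 0.733 in Mkx-/- tendons, and 14.6% of all tested genes had the same order. When every gene with at least 1 count was tested, the adjusted p was 0.612 for Irx3, 0.658 for Irx5 and 0.658 for Irx1 (edgeR quasi-likelihood test), so a change was not detectable at this depth.

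Among the TALE genes that were not members, 5 besides Mkx were tested by the edgeR quasi-likelihood test and 6 by DESeq2. By either, 0 passed in either direction. At an unadjusted p under 0.05, 2 of these, Meis3 and Tgif2, were higher. Meis3, the third Meis gene, had normalized CPM of 6.07, 8.74 and 4.33 in WT and 11.0, 11.2 and 11.6 in Mkx-/- tendons, opposite in direction to Meis1 and without overlap. Its log2 fold change of 0.83 (95% interval 0.28 to 1.38) did not pass, with adjusted p = 0.0857 by edgeR and adjusted p = 0.0502 by DESeq2. Tgif2 had normalized CPM of 1.42, 1.67 and 2.72 in WT and 2.29, 3.09 and 5.87 in Mkx-/- tendons. Its log2 fold change of 0.95 (adjusted p = 0.219, edgeR) was 0.48 (adjusted p = 0.594) without Mkx-/- replicate 3, the highest library. Pknox1 had a log2 fold change of 0.07 (adjusted p = 0.834) and Pbx2 of -0.07 (adjusted p = 0.790, both by edgeR). Pbx4, which only DESeq2 tested (adjusted p = 0.414), had 4, 4 and 2 counts in WT and 8, 9 and 11 in Mkx-/- tendons. The groups did not overlap, as in the same direction for 14.6% of all tested genes. Irx6, Tgif2lx1 and Tgif2lx2 had 0 counts in every library, and Irx4 had 1 count in 1 Mkx-/- library.

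**Figure D2:**
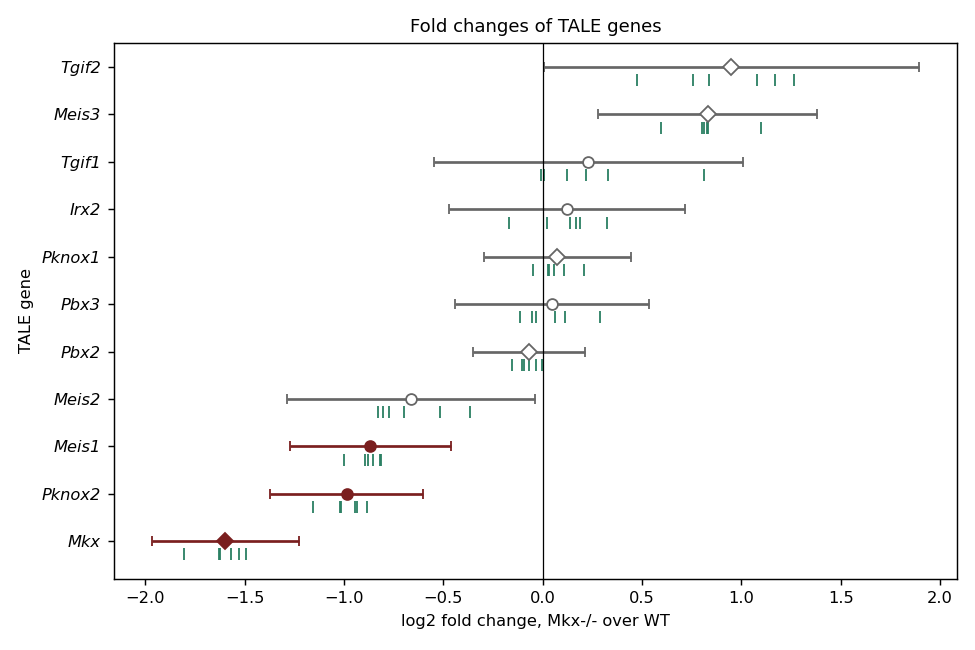
Log2 fold change of Mkx-/- over WT (x axis) for TALE genes that were tested, with 95% intervals; circles are members, diamonds other TALE genes, filled symbols have an adjusted p under 0.05, and the green ticks below are the values with 1 library left out. Mkx at -1.60, Pknox2 at -0.99 and Meis1 at -0.87 are filled, and the ticks of Tgif1 spread from -0.01 to 0.81.

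Divided by transcript length, the members ranked in WT from Tgif1 (9.11 ± 5.20 CPM per kilobase, SD, n = 3) and Pknox2 (7.63 ± 1.51) through Pbx3 (3.24 ± 0.89), Meis1 (2.92 ± 0.46), Irx2 (2.16 ± 0.26) and Meis2 (1.79 ± 0.58) to Irx5, Irx3 and Irx1 (0.25, 0.24 and 0.10). Tgif1 and Pknox2 overlapped in their 3 WT values, as did Pbx3 and Meis1, Irx2 and Meis2, and the 3 low Irx genes from one to the next. In Mkx-/- tendons Tgif1 was separate from Pknox2, at 10.7 ± 1.42 against 3.85 ± 0.20 CPM per kilobase, and Irx2 at 2.37 ± 0.79 now lay above Meis1 at 1.60 ± 0.02. On this scale Mkx stood above every other TALE gene in WT at 43.1 ± 1.54 CPM per kilobase, and in Mkx-/- tendons it was still the highest at 14.3 ± 3.03. Lengths were those of annotated transcripts, and the isoforms used in tendon were not measured.

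**Figure D3:**
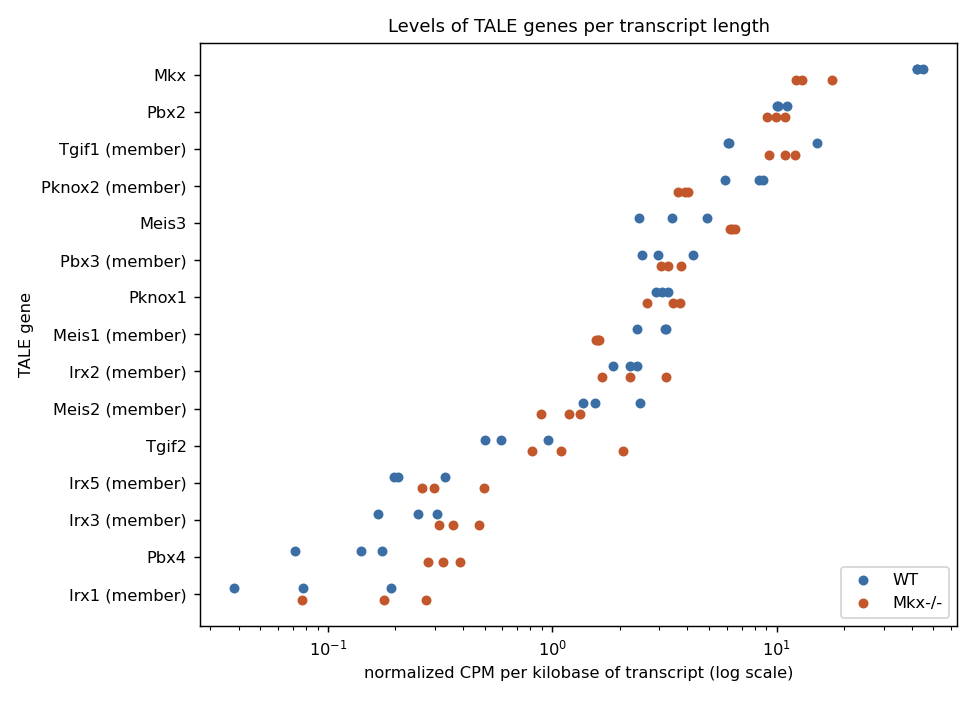
Normalized CPM per kilobase (x axis, log scale) of TALE genes with counts in WT, ordered by their WT mean, with 1 point per library. Mkx lies at 42.2 to 44.9 in WT, and the members span from Tgif1 to Irx1.

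The make-up of the TALE genes was then compared. Mkx made up 40.2, 43.8 and 46.9% of the summed CPM per kilobase of all TALE genes in WT and 24.1, 20.1 and 19.8% in Mkx-/- tendons. The 9 members together summed to 27.4 ± 7.0 CPM per kilobase in WT and 24.0 ± 2.83 in Mkx-/- tendons (SD, n = 3), and the values overlapped between the genotypes.

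Within the Meis genes, Meis1 had the smaller and Meis3 the larger share in Mkx-/- tendons. Meis1 made up 29.0, 33.6 and 44.6% of the CPM per kilobase of Meis1, Meis2 and Meis3 in WT and 17.6, 17.8 and 17.5% in Mkx-/- tendons. Meis3 made up 41.3, 51.9 and 33.8% in WT and 67.8, 69.2 and 72.5% in Mkx-/- tendons. The groups did not overlap for either share, and the summed Meis level was 8.30 ± 1.14 against 9.06 ± 0.09 CPM per kilobase. Pknox2 made up 75.0, 73.0 and 64.2% of the 2 Pknox genes in WT and 51.3, 60.5 and 51.4% in Mkx-/- tendons, again without overlap. By contrast, the share of Meis1 in Meis1 and Meis2 alone overlapped between the genotypes. It was 49.3, 69.8 and 67.4% in WT and 54.7, 57.6 and 63.7% in Mkx-/- tendons. The shares of Irx3 in Irx3 and Irx5 and of Irx1 in Irx1 and Irx2 overlapped as well. These overlapping pairs, not the shares above, were the ones named in the analysis plan. None of the shares was tested. Shares of 1 total are not independent, since a higher Meis3 share lowers those of Meis1 and Meis2.

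**Figure D4:**
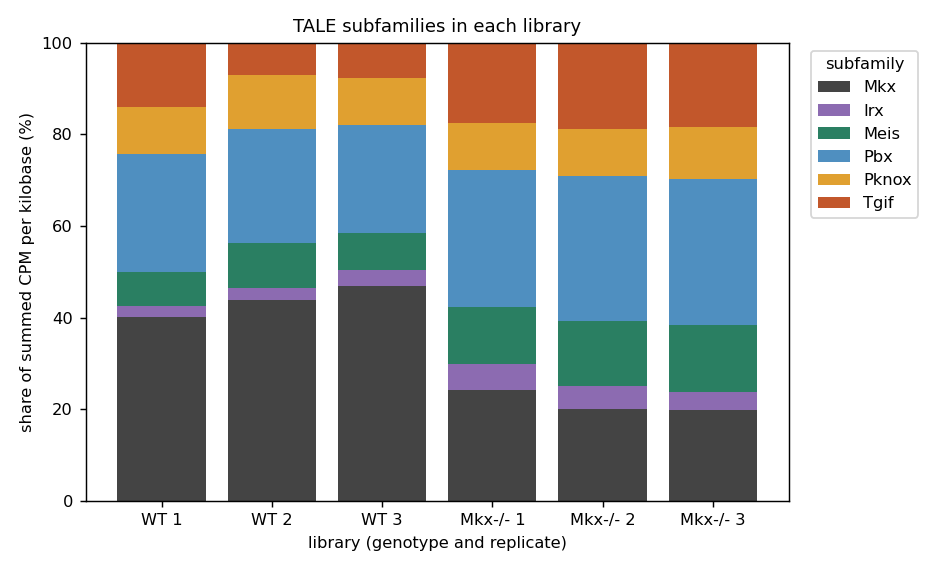
Share of each TALE subfamily in the summed CPM per kilobase (y axis, percent) in each of the 6 libraries. The Mkx share is 40.2 to 46.9% in WT and 19.8 to 24.1% in Mkx-/- tendons, and the other subfamilies fill the rest.

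In the plot of fold changes under each processing choice, Pknox2 passed in 12 of 15 alternatives and Meis1 in 8 of 15, with log2 fold changes of -1.16 to -0.74 and -1.0 to -0.60. Neither changed direction.

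**Figure D5:**
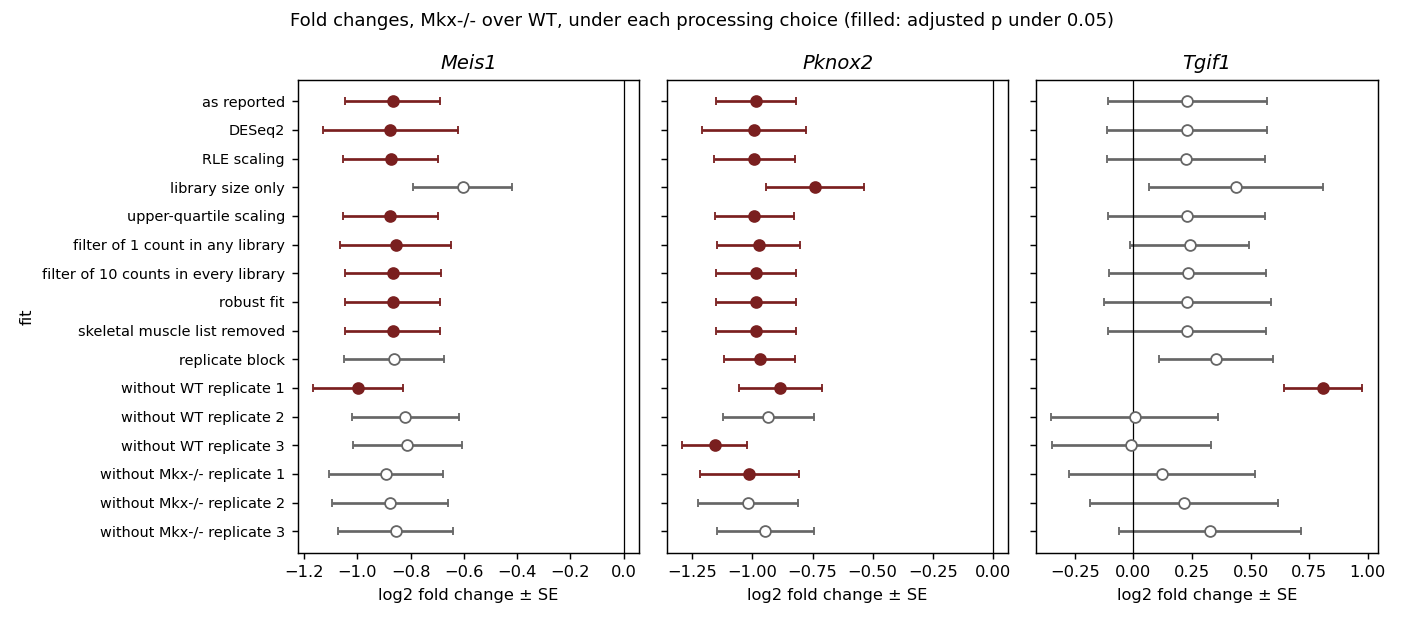
Log2 fold change ± SE (x axis) of Meis1, Pknox2 and Tgif1 under the reported fit and 15 alternatives (y axis), filled where the adjusted p was under 0.05. Meis1 and Pknox2 are below 0 in all 16 fits, whereas Tgif1 is filled only without WT replicate 1.

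The partners of TALE proteins showed no change that passed. Of 20 cofactors and corepressors, 19 were tested, 5 had a fold change above 0 and 14 below, and 0 passed by the edgeR quasi-likelihood test, with 1 higher and 1 lower at an unadjusted p under 0.05. Their median log2 fold change was -0.07, and 7342 of all 14550 tested genes were below 0. Among 60 homeobox genes outside TALE and Hox, 35 were tested. Of these 2 passed higher and 0 lower, against 3.18% and 2.26% of all tested genes. En1 was upregulated from 5.26 ± 1.46 to 16.1 ± 3.62 normalized CPM (SD, n = 3, adjusted p = 0.0102, edgeR) and Meox2 from 46.8 ± 1.81 to 66.5 ± 4.82 (adjusted p = 0.0417).

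The nearest tested coding genes on both sides of each member were read as well. Beside Pknox2 (mm9 chr9:36698570-36954899), Tmem218, at 61.0 kb, fell from 12.3 ± 2.31 to 6.59 ± 0.41 normalized CPM (adjusted p = 0.0271, edgeR), while Fez1, on the other side at 12.1 kb, had a log2 fold change of 0.32 (adjusted p = 0.361). Beside Tgif1 (mm9 chr17:71193545-71202886), Dlgap1, at 22.8 kb, fell by 1.35 on the log2 scale (adjusted p = 0.00368, edgeR), though Tgif1 itself did not pass. Beside Irx5 (mm9 chr8:94881695-94885351), Mmp2, a matrix metalloproteinase at 466 kb, rose by 1.12 (adjusted p = 0.00380). Neither neighbour of Meis1 (mm9 chr11:18780433-18918961), Etaa1 (-0.32, adjusted p = 0.606) and Spred2 (0.49, adjusted p = 0.112), passed. Genes on the opposite strand overlap some members in the annotation, namely Gm16140 and Gm16141 at Meis1, C79798 at Pbx3, n-R5s82 at Pknox2 and D230002A01Rik at Irx3. None of these symbols was in the count table, and whether the counting used strand is not given in the sources used here, so reads from them and from the member cannot be told apart.

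The profiles most like each tested member over the 6 libraries, by Euclidean distance of centred log2 normalized CPM among 10295 genes of at least 5 CPM, were Eya1 and Lsmem2 for Meis1 (distances 0.23 and 0.28) and Pwwp2b and Mertk for Pknox2 (0.32 and 0.35). They were Ppapdc2 and Slc45a4 for Meis2, Slc7a5 and Npat for Pbx3, Dstn and Wbscr27 for Tgif1, and Tubg2 and Crebbp for Irx2.

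Promoter windows of 300 bases (RefSeq, GRCm38.p6) were held for Meis1, Meis2, Irx2, Irx3 and Tgif1. Irx1, Irx5, Pbx3 and Pknox2 had no entry. ACANNTGT, searched on both strands, was in 1 of the 5 Tgif1 windows and in 7.38% of 32851 windows in all. TGACAG was in 2 of the Tgif1 windows and in 19.2% of all. TGATTGAT and TGATTGAC, in 0.746% and 0.770% of all windows, were in none of the 9 member windows.

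Library totals were 10835070 to 14160301 counts, which leaves 3 counts at 0.211 to 0.294 normalized CPM. The tendon markers Scx and Tnmd had counts in all libraries. Mean normalized CPM went from 37.0 to 16.8 for Scx, which did not pass (adjusted p = 0.106, edgeR), and from 1083 to 1065 for Tnmd. Of the 10 genes of the tendon list, 6 had fold changes below 0 and 4 above. Thbs4 was the 1 that passed, and it rose by 1.26 on the log2 scale (adjusted p = 0.0118, edgeR). The list summed to 378016 to 521589 normalized CPM in WT and 241965 to 336861 in Mkx-/- tendons, nearly all of it from Col1a1 and Col1a2, neither of which passed. The summed normalized CPM of several other marker lists did not overlap between the genotypes. The skeletal muscle list, 19 of 20 of its genes with fold changes above 0, summed to 128 to 495 in WT and 682 to 3422 in Mkx-/- tendons. The macrophage and leukocyte list, all 10 below 0, summed to 470 to 506 and 287 to 348. The endothelium list, 10 of 12 above 0, summed to 78.9 to 96.8 and 130 to 202. Its separation rested on Erg, the 1 gene of the list that passed, at 6.78 to 9.69 in WT and 26.9 to 44.1 in Mkx-/- tendons. The highest endothelium sum was that of Mkx-/- replicate 3. The Schwann cell list, all 9 above 0, summed to 6188 to 8493 and 9912 to 18484. The progenitor list, all 5 above 0 and 3 passing higher, summed to 1668 to 2365 and 2860 to 3241. It held Cd44, Thy1, Ly6a and Fstl1, and also Itm2a, 1 of the 3 passing, which the study used for tenoblasts. The epidermis and hair list, 6 of 7 tested genes above 0, summed to 15 to 33.6 and 35.8 to 40.4, though mean Trp63 went from 15.5 to 7.66. The adipocyte list summed to 5.50 to 14 and 24.4 to 61.9, largely from Car3 (means 5.85 and 36.4). Of its 7 genes 2 were tested, both above 0, while untested Lep went from 0.72 to 0. The study named the genes of the progenitor list from single-cell data of the same genotypes, after sequencing the bulk samples. The direction of that list is therefore not independent evidence. No gene of these lists was at 0 in every library. In the pericyte and smooth muscle list, Mkx-/- replicate 3 stood apart at 1087 against 308 to 400 in the other libraries, with Myh11 at 202 against 1.97 to 2.75. The part of any of these lists in the fall of Meis1 and Pknox2 was not tested. WT replicate 3 had 1 Xist count and 301 Ddx3y counts, whereas the other libraries had 1289 to 1866 and 0, the pattern of 1 male among females. Without it Pknox2 had a log2 fold change of -1.16 and Meis1 of -0.81.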

How the data were processed

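Tail tendon RNA (3 WT and 3 Mkx-/- samples) was sequenced on the Ion Proton. The table deposited by the authors holds unnormalized read counts for each gene symbol. Per their methods, reads were trimmed of adaptors, filtered on quality and mapped with MapSplice to mm9. The counting program and its use of strand are not given in the sources used here. Each of the 6 columns has a sample label of its own, and 0 columns were unused.

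Genotypes were compared with edgeR 4.0.16 (R 4.3.3): TMM scaling, filterByExpr (14550 of 44788 symbols tested), quasi-likelihood test and Benjamini-Hochberg adjustment over all tested genes. A gene passed at an adjusted p under 0.05. Normalized CPM are counts divided by the TMM-scaled library size, on the usual CPM scale. DESeq2 1.42.0, other scalings and filters, a replicate block and leaving out each library were the alternatives. The fits were tested on simulated data. Replicates differed by more than counting noise (chi-square per degree of freedom 8.22 to 40.1), so none was the same library sequenced again. These values do not show whether the libraries came from different animals. The members and gene lists were chosen with earlier results of these data known. Named were all members, Mkx, the other tested TALE genes (1 of which is not reported here), cofactors that passed, neighbours where either gene passed, and the 2 most similar profiles per member. En1, Meox2, Txnip and Pdk4 fall outside that rule and were named after their values were seen.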

Additional observations from a re-analysis of the deposited data

How the results depend on the processing

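The depth limits Irx1, Irx3, Irx5 and Pbx4, which had few counts, and 3 libraries per group leave wide intervals. Genes passing higher and lower numbered 463 and 329. They were 761 and 558 with DESeq2, 1358 and 197 with library size only, 970 and 594 with a filter of 1 count, and 117 to 539 and 127 to 439 with 1 library left out. Genes that also exceeded a log2 fold change of 1, 275 higher and 193 lower, were 711 higher with library size only, 541 and 322 with a filter of 1 count, and 103 to 321 and 112 to 248 with 1 library left out. Members passing lower, 2, were 1 with library size only and 0 to 2 with 1 library left out, and those passing higher, 0, were 0 to 1. Other TALE genes besides Mkx passing higher were 1 with library size only and 1 with a filter of 1 count (Meis3, adjusted p = 0.0301 and 0.0280, edgeR), and passing lower 1 with the latter. Without division by length the Mkx share was 47.4% in WT and 25.0% in Mkx-/- tendons. The summed level of the members turned to a log2 ratio of 0.0298 with library size only, and ranged from -0.31 to 0.0326 (without WT replicate 1) with 1 library left out. Log2 fold changes turned in sign for Irx2 (-0.17) and Pknox1 (-0.0473) without Mkx-/- replicate 1, for Pbx2 (0.18) with library size only, for Pbx3 without WT replicate 2 (-0.11), WT replicate 3 (-0.03) and Mkx-/- replicate 1 (-0.05), and for Tgif1 without WT replicate 3 (-0.00963). With 1 library left out these reached at most 0.32 for Irx2, 0.21 for Pknox1, 0.29 for Pbx3 and 0.81 for Tgif1. The smaller counts with 1 library left out come with fewer samples; otherwise the cause was not tested.

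With the replicate number as a replicate block, 264 genes passed higher and 170 lower, and 1 member passed lower: Pknox2 (-0.97, adjusted p = 0.0317, edgeR), but not Meis1 (-0.86, 0.0708). Deviations of same-numbered libraries correlated at 0.051, -0.189 and 0.285. WT replicates 1 and 2 correlated best with another number, and WT replicate 3 with its own. With 3 libraries per group these values cannot decide whether same-numbered libraries were handled together.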
